A study of Mus musculus with 4 samples.

Results

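Musashi-1 (Msi1) CLIP-seq peaks of wild-type intestinal crypts were examined that reappeared in 1 of the 2 induced libraries. The members are the peaks of wild-type replicate 1 that shared at least 1 bp on the same strand with a peak of TRE-Msi1 replicate 1 and none with a peak of TRE-Msi1 replicate 2. There were 1338 of them among the 4863 peaks of wild-type replicate 1, which is 27.5% of that list, and the 4 lists held 240811 peaks together. The members were chosen by their measured overlaps with both induced lists, so those overlaps are given as descriptions without a test.

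The wild-type samples were intestinal crypts of control mice that received no doxycycline. The TRE-Msi1 samples were total intestinal epithelial cells of mice with a doxycycline-driven Msi1 transgene, taken after 24 h of doxycycline. In all 4 libraries RNA was crosslinked to protein with ultraviolet light and recovered with an antibody to Msi1, and each group had 2 mice with 1 library each. Genotype, doxycycline and the cell preparation change together between the groups and cannot be told apart, and no source used here names the promoter or line through which doxycycline acts.

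Musashi proteins are RNA-binding proteins that recognise short UAG-containing sequences in single-stranded RNA, mostly in the untranslated ends of mRNAs, where they alter translation and stability. In the intestine Msi1 is known as a protein of the crypt base, where the stem cells lie. CLIP-seq reads mark RNA that was close to the protein, and a peak is a place where such reads pile up, so abundant RNA can give peaks as well as tightly bound RNA. No library without Msi1 antibody was analysed here, and a peak was not shown to be bound. Regions are named by mm9 position and strand, because no mm9 annotation or genome was used here; for the same reason no gene, cell type marker or base sequence is given.

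The lists differed in form before any comparison. Wild-type replicate 1 had 74 bp peaks and the authors' score of 0 throughout, wild-type replicate 2 had 5578 peaks of 75 bp and TRE-Msi1 replicate 2 had 40776 of 75 bp. TRE-Msi1 replicate 1 stood apart, with 189594 peaks of 40 bp, scores from 1.5 to 19.9, and 70.8% of its peaks on the plus strand, against 50.9% to 51.5% in the other lists. Read depth is unknown. Intervals are 95% intervals for counting error alone, with each peak taken as an independent draw, although neighbouring peaks are not. The members come from 1 library, so no p-value was computed.

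The other peaks of wild-type replicate 1 fell into 3 classes, which serve as the comparison. In TRE-Msi1 replicate 2 only, 744 peaks were found again. A further 756 overlapped a peak in both TRE-Msi1 lists, and 2025 in neither. All 1338 members were 74 bp long, and they formed 1329 distinct intervals. Of the members, 1329 overlapped 1 peak of TRE-Msi1 replicate 1 and 9 overlapped 2. Their partners, taken as the peak with the most shared bases, were 1311 distinct peaks, or 0.691% of the TRE-Msi1 replicate 1 list. The partner lay wholly inside 410 members (30.6%), and the median overlap was 29 bp.

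The members lay mostly on the minus strand, the reverse of the list they were matched to. On the plus strand there were 574 members, a share of 42.9% (Wilson interval 40.3 to 45.6%), and 764 were on the minus strand. The whole wild-type replicate 1 list had 51.5% of its peaks on the plus strand. Peaks found in both TRE-Msi1 lists were similar to the members, at 44.8% plus (41.3 to 48.4%). The balance turned over in the peaks without a TRE-Msi1 replicate 1 overlap, at 61.3% plus (57.7 to 64.7%) for those in TRE-Msi1 replicate 2 only and 56.1% (53.9 to 58.2%) for those in neither. The partners of the members were 0.416% of the plus-strand peaks and 1.36% of the minus-strand peaks of TRE-Msi1 replicate 1. Minus-strand members outnumbered plus-strand members on 16 of the 20 numbered and X chromosomes, and the plus share ran from 28.8% on chromosome 13 to 60% on chromosome 15. Strands were not counted by chromosome for the whole list or the other classes, so these chromosome values describe the members only.

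**Figure D1:**
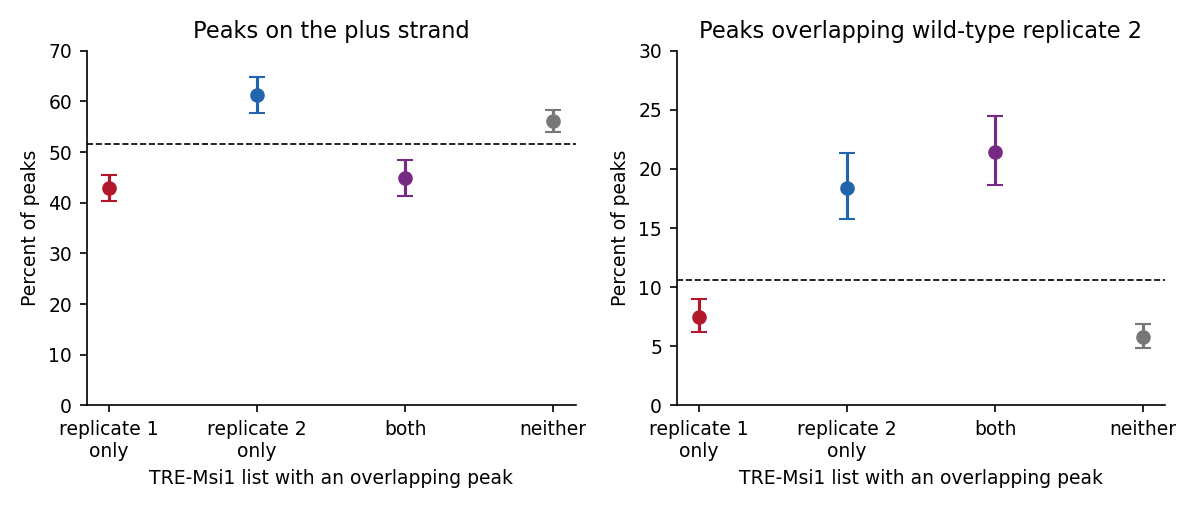
Share of wild-type replicate 1 peaks on the plus strand (left, percent) and overlapping a wild-type replicate 2 peak (right, percent) in the 4 classes set by overlap with the TRE-Msi1 lists. Points are shares with 95% Wilson intervals and the dashed line is the whole list; the members (replicate 1 only) stand at 42.9% plus and at 7.47% overlapping wild-type replicate 2.

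The position of the partner differed between the strands. Along the RNA, the centre of the partner lay upstream of the member's centre for 967 of the 1338 members (72.3%, 69.8 to 74.6%) and downstream for 359. The median offset was -22 bp (-24 to -19), negative being upstream, and the median distance regardless of direction was 28 bp. Peaks of 74 and 40 bp can share a base only while their centres are less than 57 bp apart, so the offsets of members ran from -56 to 56 bp. On the plus strand the median was -28 bp (-31 to -24) with 79.97% upstream, and on the minus strand it was -17 bp (-20 to -14) with 66.5% upstream. The class found in both TRE-Msi1 lists had nearly the same offsets, with medians of -29 bp on the plus and -20 bp on the minus strand.

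Without the limit of overlap the shares of the strands came close, with intervals that overlapped. A TRE-Msi1 replicate 1 centre lay within 150 bp of 65.6% of plus-strand peaks of wild-type replicate 1 (63.7 to 67.4%) and of 66.2% of minus-strand peaks (64.2 to 68.04%), whereas an overlap was found for 36.4% (34.6 to 38.4%) and 50.1% (48.1 to 52.1%). Within that window the nearest centre had a median offset of -48 bp (-50 to -46) on the plus strand and -26 bp (-28 to -23) on the minus strand. There were 730 plus-strand and 379 minus-strand peaks with a centre inside the window and no overlap, and in 647 and 313 of these the centre was upstream. Classing peaks by centres within 150 bp, a rule chosen after the data were seen, gave 1607 peaks in TRE-Msi1 replicate 1 only, 49.0% of them on the plus strand (46.6 to 51.5%). Whether the offset accounts for the strand balance of the members was not tested.

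**Figure D2:**
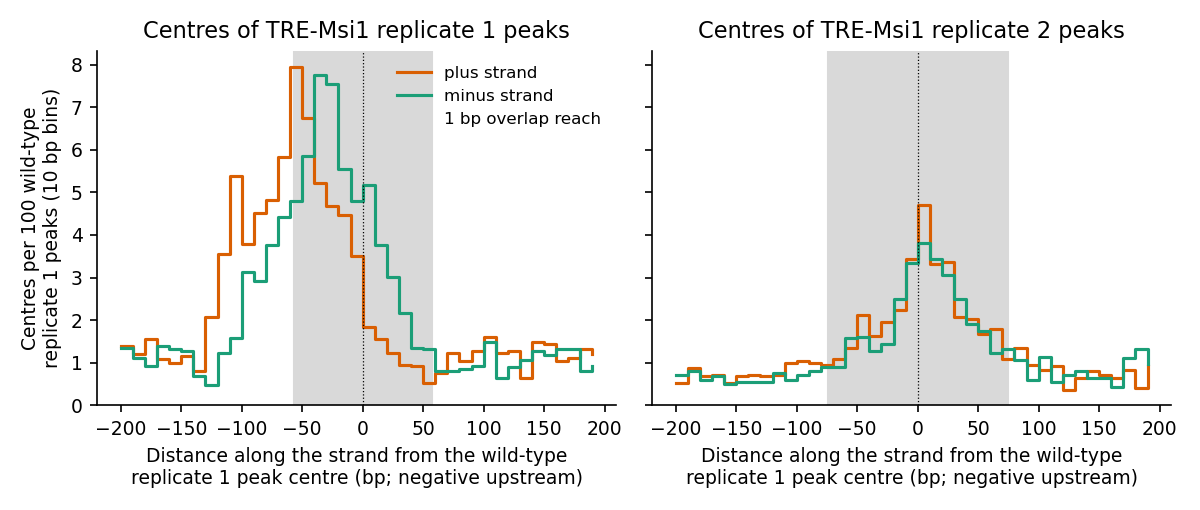
Centres of TRE-Msi1 replicate 1 (left) and replicate 2 peaks (right) around the centres of all wild-type replicate 1 peaks, by strand, in 10 bp bins (vertical axis: centres per 100 wild-type replicate 1 peaks; horizontal axis: bp along the strand, negative upstream). Grey marks the distance at which peaks share at least 1 bp; on the left both strands peak upstream and the plus strand farther so (median of the nearest centre -48 against -26 bp), and on the right both strands peak near 0.

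The upstream displacement was seen for the TRE-Msi1 replicate 1 list against each of the other lists. Its nearest centre within 150 bp had a median offset of -46.5 bp on the plus and -31.5 bp on the minus strand of wild-type replicate 2 peaks. For TRE-Msi1 replicate 2 peaks the medians were -41 and -28.5 bp. The pairs without it were close to 0, at 0.5 and -0.5 bp for wild-type replicate 2 around wild-type replicate 1, and at 6.5 and 8.5 bp for TRE-Msi1 replicate 2 around wild-type replicate 1.

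The partners were somewhat higher in their list than a typical peak. The median score of the members' partners was 2.1, against 1.8 for the whole TRE-Msi1 replicate 1 list, and their median percentile by score was 66.2 (66.2 to 72.3, ties at their middle rank). Partners of the peaks found in both TRE-Msi1 lists had a median score of 2.6 and a median percentile of 80.8 (80.8 to 83.9). In the top 10% of scores lay the partners of 234 members (17.5%), and 36.9% of the partners of peaks found in both lists. From the side of TRE-Msi1 replicate 1, 1.10% (0.963 to 1.26%) of the highest-scoring 10% were partners of members, 1.15% of the next 10% and 0.311% (0.241 to 0.401%) of the lowest. In these steps of 10%, peaks of equal score were split by file order. The lowest step and the one above it (0.269%) both held only scores of 1.5, so score does not separate them. The score floor of 1.5 was reached by partners in both classes, so weak calls are among the matches.

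Wild-type replicate 2, which the rule did not use, overlapped members less often than peaks that TRE-Msi1 replicate 2 shared, and lay as far from them as from the list as a whole. The members overlapped a wild-type replicate 2 peak in 100 cases, or 7.47% (6.18 to 9.01%), against 10.6% for the whole list. The share was 18.4% (15.8 to 21.4%) in the class found in TRE-Msi1 replicate 2 only, a difference of -10.9 percentage points (Newcombe interval -14.2 to -7.90). It was 21.4% (18.7 to 24.5%) in the class found in both, a difference of -14.0 points (-17.3 to -10.8). Against the class found in neither, at 5.78% (4.84 to 6.88%), the difference was 1.70 points with an interval that just reached 0 (-0.00125 to 3.49). Within 500 bp a wild-type replicate 2 peak lay beside 240 members (17.9%), against 19.2% of the whole list, 27.0% of the class in TRE-Msi1 replicate 2 only and 12.6% of the class in neither. The difference from the last was 5.34 points (2.86 to 7.89). The median distance from a member to the nearest same-strand wild-type replicate 2 peak was 28507 bp, with quartiles of 1555 and 232305 bp, and 813 members (60.8%) had none within 10000 bp. Over the whole list the median was 29281 bp and 61.3% had none, which is close to the members.

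TRE-Msi1 replicate 2 was absent from the members by the rule but present close by. Its nearest same-strand peak was a median of 375 bp away (335 to 419), with quartiles of 111 and 1877 bp. For 749 members (55.98%, 53.3 to 58.6%) it lay within 500 bp, against 64% of the whole list, which includes the overlapping peaks, and 42.5% (40.4 to 44.7%) of the peaks found in neither list. A distance of at most 100 bp was found for 301 members (22.5%). It was found for 43.2% of the whole list, overlapping peaks included, and for 14.7% of the peaks found in neither. For 121 members (9.04%) no TRE-Msi1 replicate 2 peak lay within 10000 bp. This share was near the 8.49% of the whole list and below the 14.4% of the peaks found in neither. The largest combined group, 402 members (30.0%), had a TRE-Msi1 replicate 2 peak within 500 bp and no wild-type replicate 2 peak within 10000 bp. A group of 91 (6.80%) had neither within 10000 bp. Within 500 bp of both lay 180 members (13.5%). These combined groups were counted among the members only, so they are not set against the whole list.

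**Figure D3:**
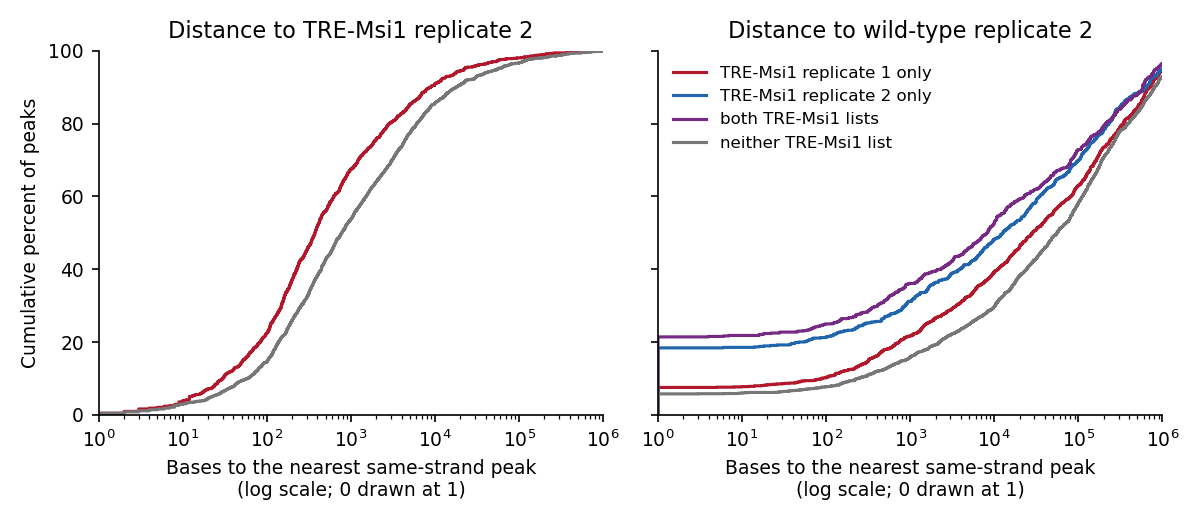
Cumulative share of wild-type replicate 1 peaks (percent) by the number of bases to the nearest same-strand peak of TRE-Msi1 replicate 2 (left) and wild-type replicate 2 (right), on a log scale, for the classes by overlap with the TRE-Msi1 lists. The classes that overlap TRE-Msi1 replicate 2 by definition are left off the first panel; the members reach 55.98% at 500 bp there, and 17.9% on the right.

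The members divided by the score of the partner. Where it was in the top 10%, 44 of 234 members (18.8%, 14.3 to 24.3%) overlapped wild-type replicate 2, against 56 of 1104 (5.07%, 3.93 to 6.53%) below it. A TRE-Msi1 replicate 2 peak lay within 500 bp of 70.1% (63.9 to 75.6%) and 52.99% (50.0 to 55.9%) of these. On the plus strand were 52.6% (46.2 to 58.9%) and 40.9% (37.99 to 43.8%). Other classes were not split by partner score for these shares, so the shares describe the members only. The 100 members that overlapped wild-type replicate 2 had partners at a median percentile of 86.5 (80.8 to 90.3), and the other 1238 at 66.2. The overlapping wild-type replicate 2 peaks had a median score of 9, as in the class found in neither TRE-Msi1 list (also 9), and below the medians of 16 and 19 in the classes found in TRE-Msi1 replicate 2 only and in both.

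Position in the deposited list moved with these results. The row order of wild-type replicate 1 stood in for its score of 0, since rows of the other lists largely run from high to low scores (Spearman's rho of row and score across peaks -0.989 to -0.905). With every score at 0, the order of wild-type replicate 1 itself could not be checked, so its rows may not follow peak strength. Members with a partner in the top 10% had a median row percentile of 12.3 (0 being the first row), and the others 47.5. Over all members the median was 41.9 (39.3 to 43.9), against 28.0 for peaks found in both TRE-Msi1 lists, 44.3 for those in TRE-Msi1 replicate 2 only and 67.2 for those in neither. Members made up 26.3% of the first 10% of rows, 37.04% (32.9 to 41.4%) of the next 10% and 29.4% (25.5 to 33.6%) of the rows from 60% to 70% down the list. In the 10% that follow, the share was 16.9% (13.8 to 20.5%), and it stayed between 15.8% and 18.1% to the end. The share with any TRE-Msi1 replicate 1 overlap took the same step, from 41.1% to 23.0%, while the share in TRE-Msi1 replicate 2 only was 14.8% on both sides. The class found in both TRE-Msi1 lists also fell, from 11.7% to 6.17%, so overlap with TRE-Msi1 replicate 2 of any kind fell as well. Whether row order accounts for the differences between classes was not tested.

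**Figure D4:**
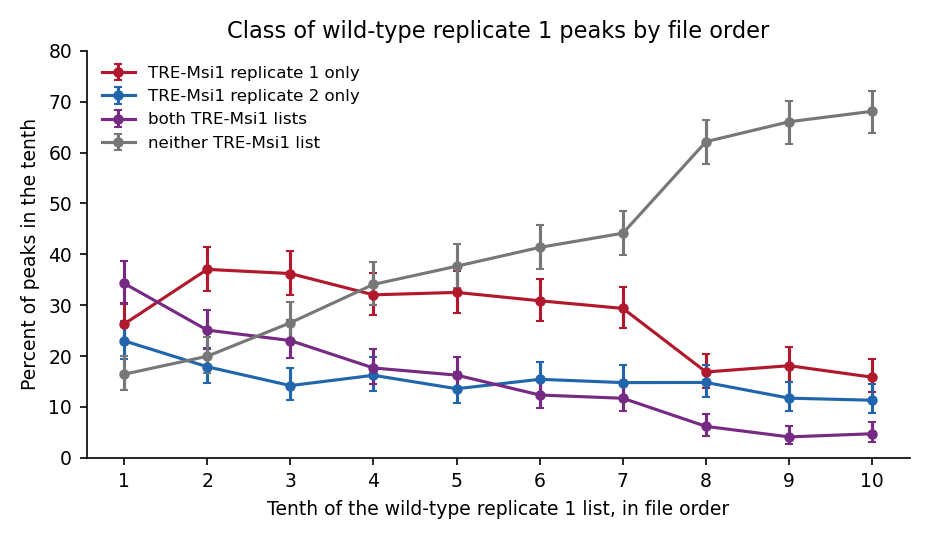
Percent of wild-type replicate 1 peaks in each class (vertical axis, 95% Wilson intervals) by 10% steps of the list in file order (horizontal axis, 1 to 10). The members (TRE-Msi1 replicate 1 only) go from 29.4% in step 7 to 16.9% in step 8. There the class found in both goes from 11.7% to 6.17%, and the class found in TRE-Msi1 replicate 2 only stays at 14.8%.

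By chromosome, the members followed the wild-type replicate 1 list with modest departures. They were 35.1% of its peaks on the X chromosome (60 of 171, 28.3 to 42.5%) and 34.1% on chromosome 3 (107 of 314, 29.1 to 39.5%). The lowest shares were 21.2% on chromosome 4 (53 of 250), 21.7% on chromosome 19 (43 of 198) and 22.5% on chromosome 2 (77 of 342). Chromosomes 1 and 11 carried the most members, 114 and 111, and also the most peaks of the list, 385 and 400. The X chromosome supplied 5.59% of the TRE-Msi1 replicate 1 list and 3.13% of the TRE-Msi1 replicate 2 list, while chromosome 3 supplied 5.45% and 5.91%. Of 11 mitochondrial peaks 1 was a member.

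**Figure D5:**
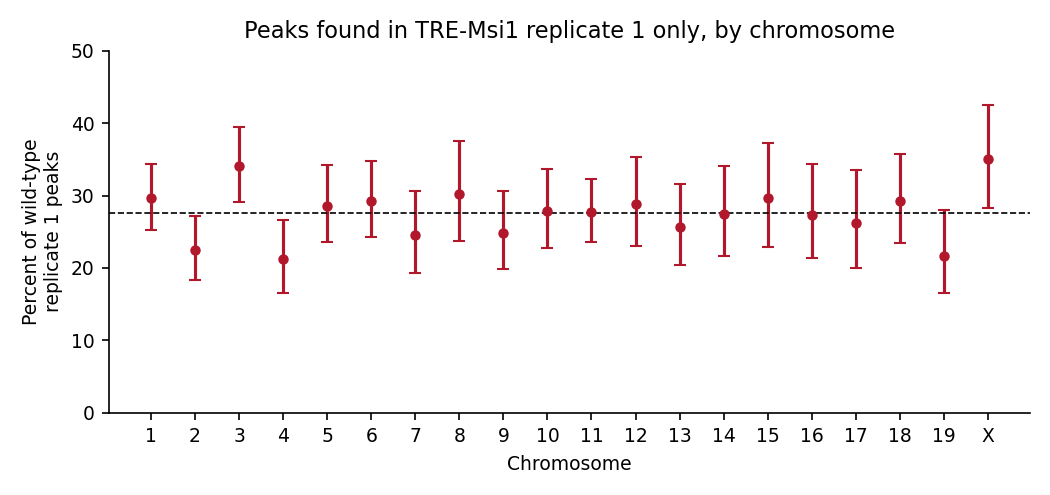
Members as a percent of the wild-type replicate 1 peaks of each numbered chromosome and X, with 95% Wilson intervals; the dashed line is their share over these chromosomes together. Shares run from 21.2% on chromosome 4 to 35.1% on the X chromosome.

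The members were clustered along the strand, as were the peaks found in both TRE-Msi1 lists. Another wild-type replicate 1 peak of any class lay within 10000 bp of 838 members (62.6%, 60.0 to 65.2%), against 52.8% of the whole list and 41.5% (39.4 to 43.7%) of the peaks found in neither TRE-Msi1 list. For peaks found in both it was 65.3%, and for those in TRE-Msi1 replicate 2 only 53.1%. Members up to 10 kb apart formed 1062 loci, of which 203 held at least 2 distinct members and together 471 members (35.2%). In 87 of these 203 loci no TRE-Msi1 replicate 2 peak fell inside the span, and in 150 no wild-type replicate 2 peak did. The rule itself keeps TRE-Msi1 replicate 2 peaks off the members, which lowers their number in short spans. Loci of the other classes are not set beside these counts, so they describe the member loci only.

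The 5 largest loci were taken by the number of distinct members, ties by position. The first was chr3:72729276-72770710 on the minus strand and held 9 members, with 21 TRE-Msi1 replicate 1, 7 TRE-Msi1 replicate 2 and 5 wild-type replicate 2 peaks in the span. A neighbouring locus on that strand, chr3:72704292-72718538, held 4 members and had 10, 0 and 3 peaks in the same lists. The minus-strand locus chr16:56724490-56773545 held 8 members, with 17, 3 and 0 peaks. The 2 loci with the most members, on chromosomes 3 and 16, spread over 41435 and 49056 bp. The locus chr11:50107995-50109562 (minus) held 5 members in 1568 bp, with 9, 3 and 1 peaks. The locus chr2:14142120-14143630 (plus) held 4, with 8, 3 and 0. Its 4 members were equalled at 2 more loci, named here because of the tie, chr11:3541647-3548008 and chr11:51413668-51417940, both on the minus strand. The highest partner score in the 7 loci was 5.5, below those of the members named next.

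The 10 members with the highest-scoring partners were mostly places with a wild-type replicate 2 peak, which overlapped 8 of them. The first was chr9:123371183-123371256 (plus), with a partner score of 19.2, a wild-type replicate 2 peak overlapping it and a TRE-Msi1 replicate 2 peak 24 bp away. It was followed by chr6:72756998-72757071 (plus, score 16.3), chr18:54858844-54858917 (minus, 15.8), chr17:24802953-24803026 (plus, 15.5) and chr2:73706038-73706111 (plus, 15.2). Each of these overlapped wild-type replicate 2. The regions on chromosomes 6, 17 and 2 had their nearest same-strand TRE-Msi1 replicate 2 peak 208124, 107484 and 479375 bp away, and that on chromosome 18 had it 97 bp away. Thus some of the strongest partners stood in places with no TRE-Msi1 replicate 2 peak on their strand for over 100 kb, and others beside one.

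The next 5 were chr3:37380534-37380607 (plus, 14.5), chrX:113400754-113400827 (minus, 14.2), chr12:79452013-79452086 (plus, 13.9), chr6:3150847-3150920 (plus, 13.6) and chr15:86025580-86025653 (plus, 13.1). Their nearest TRE-Msi1 replicate 2 peaks were 49, 45, 17617, 425 and 0 bp away, 0 meaning adjacent. The members on chromosomes 12 and 15 did not overlap wild-type replicate 2, whose nearest peaks were 30 and 89 bp away. Of the 10, 5 had a downstream partner, with offsets of 46, 19, 35, 52 and 22 bp on chromosomes 9, 18, 12, 6 (3150847) and 15, and the other 5 had an upstream one.

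At the edge of the rule the classes met closely. The smallest overlap with TRE-Msi1 replicate 1 was 1 bp, in 26 members, the first of them chr1:67198918-67198991 (plus). Overlaps of at most 5 bp were found in 111 members, while 103 peaks of the class found in neither list had a TRE-Msi1 replicate 1 peak at most 5 bp away. A TRE-Msi1 replicate 2 peak lay at most 5 bp from 28 members, and 27 peaks of the class found in both shared at most 5 bp with one. Just outside, chr10:101840861-101840934 (plus) adjoined a TRE-Msi1 replicate 1 peak without sharing a base, as did 20 peaks in all. The peak chr1:120355703-120355776 (minus) missed membership by 1 bp of overlap with TRE-Msi1 replicate 2. Peaks of wild-type replicate 1 were 74 bp long and those of TRE-Msi1 replicate 2 were 75 bp, for a reason not stated. Edges that turn on 1 bp are therefore uncertain.

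The same class built from wild-type replicate 2 was smaller. It held 258 of 5578 peaks, 4.63% (4.10 to 5.21%), which is 22.9 percentage points less than in wild-type replicate 1 (Newcombe interval of the difference 21.5 to 24.3). The plus-strand share was 47.3% (41.3 to 53.4%), an interval that overlaps that of the members and includes even strands. The median offset was -15 bp (-24.5 to -10.5), upstream as for the members, and the median partner percentile was 72.3 (66.2 to 77.0). Of the 258, 95 (36.8%, 31.2 to 42.9%) overlapped a peak of wild-type replicate 1. Within 150 bp, a TRE-Msi1 replicate 1 centre was found for 17.0% of plus-strand and 14.8% of minus-strand peaks of wild-type replicate 2. The share of 4.63% and that of wild-type replicate 1 are what the rule counts, with intervals that take each peak as independent. The 2 libraries give no usable spread for the group, so the difference between them was not tested.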

How the data were processed

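Msi1 CLIP-seq peak lists of 4 libraries were used, with groups and replicate numbers from the sample titles. The submitters' processing notes name Bowtie, HOMER and mm9, without versions, settings or roles. Each deposited list gives a position, a strand and the authors' score, whose unit is not stated; scores were used within a list. Depth is unknown, and peaks were listed per library, not on pooled samples.

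Same-strand overlap of at least 1 bp set the classes; bedtools 2.31.1 gave the same 1338 members. Distances are bases between the edges of same-strand peaks, and offsets are between centres. Shares carry 95% Wilson intervals, differences Newcombe intervals, medians binomial order-statistic intervals. Coordinates are 1-based. Named regions are the 10 members with the highest partner score, the 5 largest loci and the peaks at the edge of the rule. The code was tested on simulated lists. Calculations used scipy 1.17.1, numpy 2.4.6 and pandas 2.3.3 under Python 3.11.15, with plots from matplotlib 3.10.9. The members and measures were chosen with earlier results of these data known. Alternatives are in the closing section.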

Additional observations from a re-analysis of the deposited data

How the results depend on the processing

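No paired analysis was possible because no result comes from a fit across samples and each library gives 1 list. With a reciprocal overlap of 50%, there were 571 members, 38.7% on the plus strand, 5.95% overlapping wild-type replicate 2, at a median centre distance of 10 bp, and 23.5% with another member within 10 kb (36.4% in the main setting). With the top 25% of both TRE-Msi1 lists there were 643, with 12.6% overlapping wild-type replicate 2, a median partner percentile of 88.7 and 39.2% with a member within 10 kb. Resizing peaks to 75 bp gave 45.8% plus, a distance of 34 bp and 39.4% within 10 kb. Without TRE-Msi1 replicate 2 there were 2094 peaks, 12.5% overlapping wild-type replicate 2 and 46.99% within 10 kb. Centres within 150 bp, added after the data were seen, gave 49.0% plus and a distance of 41 bp. The class built from wild-type replicate 2 held 110 peaks with the reciprocal overlap and 145 with the top 25%. Of the alternative values, 31 stayed within the interval of the main value, or within 1.5 times for counts, and 19 moved. Some of these moves were built into the setting. Keeping the top 25% raises the partner percentile, which was ranked in the full list. The reciprocal overlap limits the centre distance, and wider peaks or the window of 150 bp allow longer ones. Either strand, numbered chromosomes and X, and identical intervals counted once moved none of the values computed under them. Without TRE-Msi1 replicate 1 the class cannot be formed. Depth is unknown and limits every list.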

Other observations

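Among the 2025 peaks of wild-type replicate 1 found in neither TRE-Msi1 list, 679 (33.5%, 31.5 to 35.6%) had a TRE-Msi1 replicate 1 centre within 150 bp, and for 572 of these (84.2%) it lay upstream. The share was 39.0% (36.2 to 41.9%) on the plus strand and 26.5% (23.7 to 29.5%) on the minus strand. Peaks found in TRE-Msi1 replicate 2 only had their nearest TRE-Msi1 replicate 1 peak a median of 47.5 bp away (41 to 56).

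Of the 121 members without a TRE-Msi1 replicate 2 peak within 10000 bp, 18 (14.9%, 9.62 to 22.3%) overlapped wild-type replicate 2, compared with 63 of the 749 members (8.41%, 6.63 to 10.6%) that had one within 500 bp and 19 of the 468 (4.06%, 2.61 to 6.25%) between these distances. The members far from TRE-Msi1 replicate 2 had a median row percentile of 68.4 in the wild-type replicate 1 list, and those within 500 bp 31.7.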
